A study of Mus musculus with 30 samples.

Results

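The thyroids of 3 wild-type C57BL/6 male mice aged 18 months were compared with those of 3 wild-type C57BL/6 males aged 8 months, 6 of the 30 libraries of the series. The members were taken from the sample titles, which give the age, genotype and sex, and every one of the 6 mice is labelled wild type, with no allele, agent or treatment named. The other libraries are from FAD4T and wild-type mice of 2 and 8 months and from 2-month wild-type males. Poly(A) RNA of the whole gland was sequenced, with 3 mice in each group by the series design. Litters, housing, days of dissection and the hour of collection are not stated, so the p-values reflect only the spread among the animals fitted. Those are these 6 mice and 6 wild-type males of 2 months. The 18-month males are listed in the series with the 2-month males numbered 4 to 6, and the 8-month males with the 2-month males numbered 1 to 3. Age and library set therefore differ together in the direct comparison, where they cannot be told apart. A second contrast subtracted the difference between the 2-month males of both sets, and it rests on that reading of the titles.

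The thyroid follicle is a shell of epithelial cells around a store of thyroglobulin, a very large protein that is folded in the endoplasmic reticulum (ER), secreted, iodinated at the cell surface and later taken back up to release thyroid hormone. Thyroglobulin needs the ER chaperones and disulphide isomerases to fold, and the gene set of the unfolded protein response supplies them when folding demand rises. Thyrotropin from the pituitary drives iodide uptake and hormone release, and it is itself secreted with a daily rhythm. The gland lies against muscle, fat, the parathyroids and the cartilage of the larynx, so a dissected thyroid can carry transcripts of its neighbours.

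Each of the 6 libraries held between 17862493 and 19398378 counts assigned to genes. Tg, the thyroglobulin gene, took 15.4%, 16.5% and 23.2% of them in 18-month replicates 1, 2 and 3, against 19.6%, 18.0% and 21.4% in the 8-month ones, which matches the labelled tissue. Some libraries stood apart within their own group. Pth, parathyroid hormone, lay at 7712, 11218 and 4.97 CPM (counts relative to the scaled library total) in the 18-month libraries, against 121, 16495 and 66.7 CPM in the 8-month libraries. The mean level of 19 skeletal muscle markers, 18 of them tested, as log2(CPM + 1), was 6.89, 9.24 and 7.22 at 18 months and 7.96, 4.76 and 5.43 at 8 months. The level of the red blood cell list (8 members, 6 tested) was 1.69, 5.90 and 2.30, against 4.37, 2.45 and 3.14. No muscle, parathyroid or red blood cell marker passed the test, and the groups overlapped in all 3 lists. In whole tissue, fewer cells of a type and less RNA per cell cannot be told apart.

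The 18-month gland held more transcript of ER chaperones and heat shock proteins, less of several fat cell genes, rises and falls among circadian clock genes, and hardly any of the liver transcripts seen at 8 months. The gene lists were chosen with earlier results of these data known, so a list's count beside the share of all genes only describes. Of 17373 genes tested, edgeR's quasi-likelihood test called 1443 at a Benjamini-Hochberg adjusted p under 0.05, which is 8.31%. The gene rose at 18 months in 590 cases (3.4%) and fell in 853 (4.91%). The median log2 fold change over all genes was 0.01. In 1436 of the called genes the 3 libraries of 18 months and the 3 of 8 months did not overlap. Nearly every call thus lacks overlap, and the share among all genes tested was not counted, so a lack of overlap adds no support to a call. The change was at least 2-fold in 137 rises and 409 falls. Between the 2-month males of the 2 library sets, which share age, sex and genotype, 4631 genes were called (26.7%). With that difference subtracted, 4215 genes were called between 18 and 8 months (24.3%), of which 2020 were higher (11.6%) and 2195 lower (12.6%). Of the 1443 direct calls, 949 were called in the same direction there and 0 in the opposite one. Leaving out 1 library at a time gave 636 calls without 18-month replicate 1, 674 without 18-month replicate 2 and 1337 without 18-month replicate 3. The counts were 442, 1063 and 441 without 8-month replicates 1, 2 and 3, and 345 genes were called in all 6 of these fits.

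The length of the transcript also moved with the age group. Among 344 genes with under 1 kb of exon, 0 rose and 67 fell at 18 months, with a median log2 fold change of −0.33. Among 3041 genes with over 6.5 kb of exon, 258 rose and 40 fell, with a median of 0.15. The shortest genes deviated from the mean of the 12 wild-type male libraries by −0.33, −0.33 and −0.40 in the 18-month libraries, against 0.03, −0.02 and −0.05 in the 8-month ones. The 2-month males numbered 4 to 6 deviated the other way, by 0.27, 0.63 and 0.71, and those numbered 1 to 3 by −0.05, −0.42 and −0.08. Number 2 thus had a trend as steep as the 18-month libraries. Subtracting the set difference widened the trend between 18 and 8 months, to a median of −1.10 for the shortest genes and 0.44 for the longest. After the length trend of each library was taken out, 1091 genes were called, 483 higher (2.78%) and 608 lower (3.5%), and 921 of the direct calls held. With both the length trend and the set difference taken out, 1395 genes were higher (8.03%) and 1137 lower (6.54%), 608 direct calls held and 2 were called in the opposite direction. A core of 470 direct calls, 175 rises and 295 falls, held in all 3 other contrasts. All of these contrasts hold the same libraries of 18 and 8 months. Agreement among them is therefore partly built in and is no independent support for a gene. What sets the length trend was not tested.

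**Figure D1:**
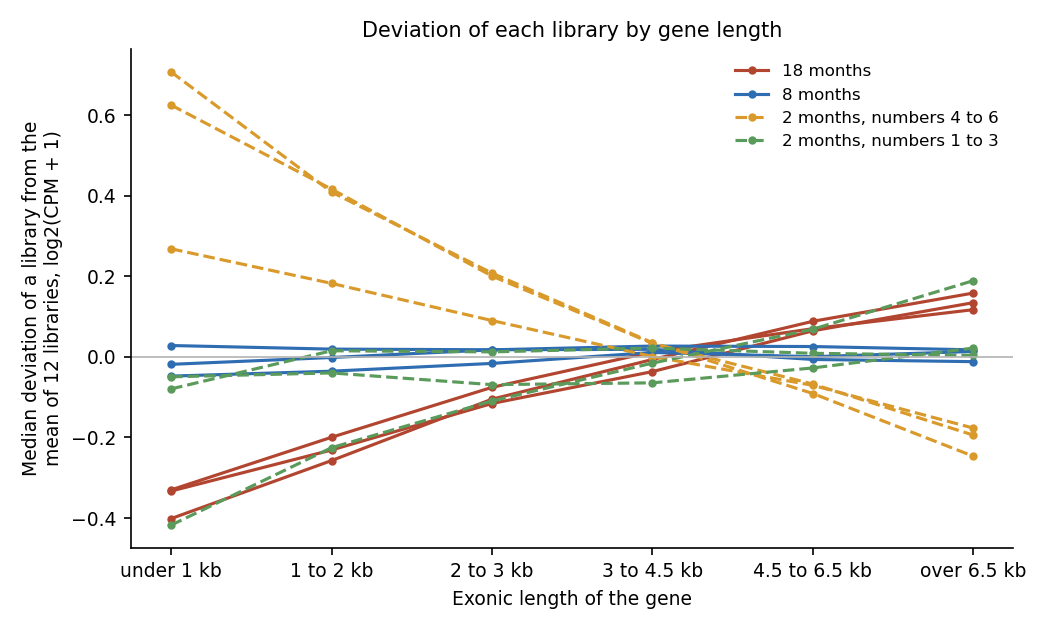
Median deviation of each wild-type male library from the mean of the 12, as a difference in log2(CPM + 1), for 6 bins of exonic length in kilobases; each line is 1 library. The 18-month libraries run from −0.33 to −0.40 for the shortest genes up to 0.12 to 0.16 for the longest, the 8-month libraries stay within 0.05 of 0, the 2-month libraries numbered 4 to 6 slope the other way, and of those numbered 1 to 3 number 2 follows the 18-month ones.

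Many chaperones of the ER rose. Of 21 genes of the ER chaperone and unfolded protein response list, 12 rose and 0 fell, against 3.4% and 4.91% of all genes, and the list's median log2 fold change was 0.69, against 0.01 over all genes. The mean level of the list, as log2(CPM + 1), was 9.37, 9.07 and 8.83 at 18 months and 8.49, 8.37 and 8.52 at 8 months, so every 18-month library lay above every 8-month one. The 6 libraries of 2 months lay between 7.60 and 8.21. With the set difference taken out 12 of the 21 rose, with the length trend taken out 12, and 11 were called in every contrast. The exception among the 12 was Ddit3, whose log2 difference after taking out the set was 0.59 (adjusted p = 0.22).

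Hyou1 (ENSMUSG00000032115), a large chaperone of the ER lumen, held 1233, 1002 and 774 CPM in the 18-month libraries, against 322, 355 and 341 CPM in the 8-month ones. The groups did not overlap, and the rise was 1.56 on the log2 scale (SE 0.25, adjusted p = 0.0025). Creld2, a disulphide isomerase secreted under ER stress, held 736, 499 and 363 CPM against 177, 172 and 190 CPM (log2 1.57, SE 0.25, adjusted p = 0.0034). Hspa5, the BiP chaperone that binds unfolded thyroglobulin and holds the stress sensors inactive, held 4871, 3662 and 2962 CPM at 18 months, against 1947, 1712 and 2121 CPM at 8 months. Its lowest 18-month library was above its highest 8-month one, and it rose by 0.99 (SE 0.25, adjusted p = 0.027). Hsp90b1, the ER form of HSP90, held 2540, 2253 and 1836 CPM against 1260, 1131 and 1349 CPM and rose by 0.83 (SE 0.18). Pdia4, a disulphide isomerase, held 1204, 976 and 704 CPM at 18 months and 436, 394 and 463 CPM at 8 months, a rise of 1.16 (SE 0.22, adjusted p = 0.0059). Pdia6, another of that family, rose by 0.63 (SE 0.18, adjusted p = 0.046). Among the co-chaperones of Hspa5, Sdf2l1 rose by 1.01, Dnajc3 by 0.76 and Dnajb11 by 0.69. Of the machinery that removes misfolded protein from the ER, the ubiquitin ligase Syvn1 held 256, 181 and 174 CPM against 104, 92.1 and 90.8 CPM, a rise of 1.09 (SE 0.17, adjusted p = 0.0021), and Edem1, which helps to pick glycoproteins for disposal, rose by 0.85. Ddit3, the CHOP transcription factor of prolonged ER stress, held 74.9, 49 and 44 CPM against 29.1, 30.2 and 29.2 CPM and rose by 0.92. In all 12 genes the 18-month values fell into 1 pattern, with replicate 1 highest and replicate 3 lowest.

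The calls of Hyou1, Creld2, Pdia4 and Syvn1 held whichever library was left out, with adjusted p of at most 0.0319. The list's count was 4, 6 and 13 without 18-month replicates 1, 2 and 3, and 4, 6 and 6 without 8-month replicates 1, 2 and 3. Hspa5, Sdf2l1, Dnajc3, Dnajb11, Pdia6 and Ddit3 were called without 18-month replicate 3 and in none of the other 5 fits, where the highest adjusted p was 0.108 for Hspa5, 0.0835 for Sdf2l1, 0.123 for Dnajc3, 0.122 for Dnajb11, 0.172 for Pdia6 and 0.118 for Ddit3. Hsp90b1 (0.0604) and Edem1 (0.0685) lost theirs without 18-month replicate 1 or 8-month replicate 1. Parathyroid content differed among these libraries. At 18 months the chaperone level was higher in replicates 1 and 2, with Pth at 7712 and 11218 CPM, than in replicate 3, with 4.97 CPM. At 8 months it was lowest in replicate 2, where Pth was highest at 16495 CPM. Among the 3 libraries with Pth under 1000 CPM the list's median was 0.36, with 16 members higher, among the 3 with more it was 1.05, and 0 members were called in either subset. The level of the B and plasma cell list was 1.55, 2.99 and 2.18 at 18 months, against 1.71, 1.62 and 1.64 at 8 months, and its part in the result was not tested.

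RefSeq promoters on GRCm38.p6, from 250 bases before to 50 after the start of the gene, were read for 19 of the 21 genes. The ER stress response element, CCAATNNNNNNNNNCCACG on either strand, was found in 8 of them, against 0.119% of 32851 mouse promoters. It was present in 6 of the 11 called genes with a promoter, and in Calr and Canx, which were not called. The 6 are shown in full because the element is the letter string known to recruit ATF6 to chaperone genes, with the element in capitals. It lies 65 to 47 bases upstream of the start in Hspa5, 212 to 194 and 107 to 89 in Hsp90b1, 98 to 80 in Pdia6, 105 to 87 in Dnajc3, 126 to 108 in Creld2 and 44 to 26 in Syvn1. It reads on the opposite strand in Creld2 and at the nearer place in Hsp90b1.
Hspa5 (chr2:34771840-34772139, forward strand): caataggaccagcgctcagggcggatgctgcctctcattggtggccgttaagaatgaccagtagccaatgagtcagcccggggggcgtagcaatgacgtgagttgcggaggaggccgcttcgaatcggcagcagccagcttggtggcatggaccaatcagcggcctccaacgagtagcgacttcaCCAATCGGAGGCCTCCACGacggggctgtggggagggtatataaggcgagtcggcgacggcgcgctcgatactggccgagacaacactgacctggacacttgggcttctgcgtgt
Hsp90b1 (chr10:86705395-86705694, reverse strand): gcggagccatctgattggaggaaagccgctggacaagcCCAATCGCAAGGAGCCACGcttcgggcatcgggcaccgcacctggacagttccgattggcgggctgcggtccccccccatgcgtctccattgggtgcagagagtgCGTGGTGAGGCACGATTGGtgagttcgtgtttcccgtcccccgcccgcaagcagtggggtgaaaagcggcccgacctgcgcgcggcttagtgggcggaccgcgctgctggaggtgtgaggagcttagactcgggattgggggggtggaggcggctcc
Pdia6 (chr12:17266339-17266638, forward strand): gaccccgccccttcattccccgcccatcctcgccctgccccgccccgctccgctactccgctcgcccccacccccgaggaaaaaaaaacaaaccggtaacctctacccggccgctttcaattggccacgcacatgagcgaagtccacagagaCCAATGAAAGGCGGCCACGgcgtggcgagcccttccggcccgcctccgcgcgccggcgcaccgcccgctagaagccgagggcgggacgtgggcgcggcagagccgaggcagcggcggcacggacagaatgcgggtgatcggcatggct
Dnajc3 (chr14:118937682-118937981, forward strand): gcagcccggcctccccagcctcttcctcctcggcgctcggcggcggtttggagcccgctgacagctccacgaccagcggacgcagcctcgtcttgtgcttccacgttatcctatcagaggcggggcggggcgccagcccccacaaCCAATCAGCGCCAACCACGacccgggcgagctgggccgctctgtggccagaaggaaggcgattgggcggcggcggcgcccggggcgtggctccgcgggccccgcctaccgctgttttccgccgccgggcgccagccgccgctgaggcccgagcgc
Creld2 (chr15:88819396-88819695, forward strand): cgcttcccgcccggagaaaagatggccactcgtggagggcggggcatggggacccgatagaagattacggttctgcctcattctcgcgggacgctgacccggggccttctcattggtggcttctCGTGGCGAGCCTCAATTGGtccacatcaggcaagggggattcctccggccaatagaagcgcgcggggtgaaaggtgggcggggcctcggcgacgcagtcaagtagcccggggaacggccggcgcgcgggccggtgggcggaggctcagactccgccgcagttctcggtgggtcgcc
Syvn1 (chr19:6046326-6046625, forward strand): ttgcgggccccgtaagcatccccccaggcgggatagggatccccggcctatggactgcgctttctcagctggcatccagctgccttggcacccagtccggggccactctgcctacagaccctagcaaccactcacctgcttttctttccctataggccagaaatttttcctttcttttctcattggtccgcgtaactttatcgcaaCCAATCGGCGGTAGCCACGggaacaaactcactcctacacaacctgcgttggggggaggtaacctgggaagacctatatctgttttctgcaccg
A match describes letters only, and no binding was measured in these mice. The element is known from chaperone genes, so a high share in this list was to be foreseen and adds no support to a call.

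Several cytosolic and mitochondrial heat shock genes also rose. Of 16 genes, 7 rose and 0 fell, against 3.4% and 4.91% of all genes. The median was 0.66, and all 16 log2 fold changes were positive. The mean level was 7.62, 7.59 and 6.86 in the 18-month libraries, against 6.75, 6.58 and 6.64 in the 8-month ones, so 18-month replicate 3 lay close to the 8-month gland. Hspa8, the constitutive cytosolic HSP70, held 2083, 1771 and 1060 CPM against 889, 858 and 858 CPM and rose by 0.92 (SE 0.21, adjusted p = 0.017). Hsp90ab1, the constitutive HSP90, held 1795, 1874 and 1116 CPM against 988, 947 and 920 CPM (log2 0.74, adjusted p = 0.041). The 2 inducible HSP70 genes, Hspa1a and Hspa1b, are near-identical copies, so the split of reads between them is uncertain. Hspa1b held 123, 83.4 and 46.7 CPM against 40.6, 28.7 and 36 CPM (log2 1.27, SE 0.30, adjusted p = 0.029), and Hspa1a 34.6, 43.6 and 19.7 CPM against 18.9, 13.8 and 14 CPM. The co-chaperones Dnaja1, Stip1 and Chordc1 rose by 0.77, 0.63 and 0.58. Hsph1, an HSP70 exchange factor, had the largest difference of the list, 161, 209 and 71.1 CPM against 46.1, 45 and 44.8 CPM, and did not pass (log2 1.70, SE 0.49, adjusted p = 0.067). All 7 were called without 18-month replicate 3, 1 was called without 8-month replicate 1 and 0 without any 1 of the other 4 libraries, with adjusted p up to 0.144. With the set difference taken out 7 members rose, 4 of the 7 in every contrast, and Hsp90ab1 (adjusted p = 0.36) and Stip1 (0.39) were not called there, while Chordc1 was not called with the length trend taken out (0.074). Among the libraries with Pth under 1000 CPM the median was 0.23, and among those above it 0.98. The heat shock element GAANNTTCNNGAA lay in 4 of 13 promoters of the list, those of Chordc1, Hspd1, Hspe1 and Hsph1, against 0.603% of all promoters. It was in 1 of the 5 called genes with a promoter, Chordc1, and Hspd1, Hspe1 and Hsph1 were not called.

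**Figure D2:**
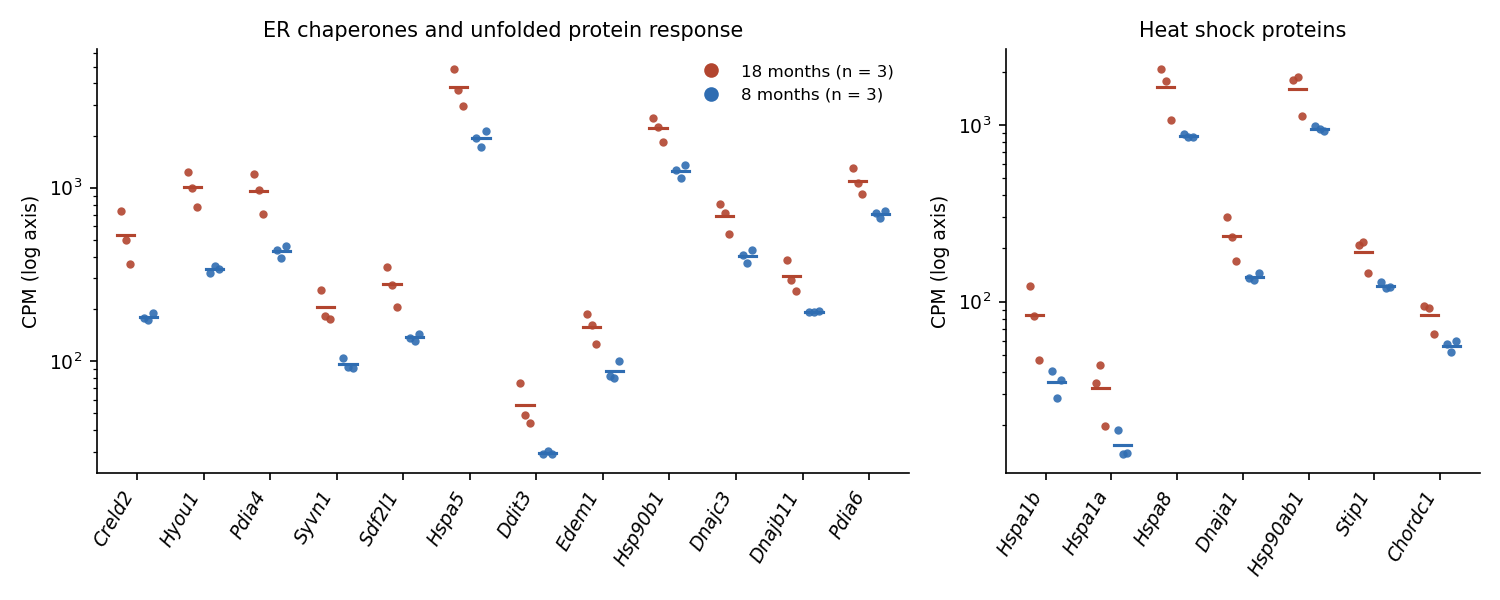
CPM per library on a log axis for the called genes of the ER chaperone list (left) and of the heat shock list (right); points are libraries, bars are means of 3. In every gene the 18-month points lie above the 8-month points, and the lowest 18-month point is replicate 3 in all 19 genes, as for Hspa8 at 1060 CPM.

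Clock genes moved in both directions. The clock is a loop in which Arntl (BMAL1) with Clock or Npas2 turns on the Per, Cry, Nr1d and Dbp genes, whose products feed back, so the transcripts of both arms peak at opposite times of day. Of 19 clock genes, 6 rose and 4 fell, against 3.4% and 4.91% of all genes. Dbp, an output transcription factor driven by Arntl and Clock, held 12.3, 20.8 and 34.6 CPM at 18 months, against 104, 85.6 and 115 CPM at 8 months. The groups were far apart and the fall was 2.17 on the log2 scale (a log2 fold change of −2.17, SE 0.31, adjusted p = 0.0024). The 2-month males averaged 231 CPM (numbers 1 to 3) and 235 CPM (numbers 4 to 6). Nr1d1 (REV-ERBα), the repressor of Arntl, held 62.8, 75.8 and 90.5 CPM against 197, 156 and 195 CPM (log2 −1.26, SE 0.19, adjusted p = 0.0018). It overlaps Thra on the opposite strand, and counting took no account of strand. Its relative Nr1d2 held 77.3, 95.5 and 112 CPM against 202, 160 and 209 CPM (log2 −1.01, SE 0.16, adjusted p = 0.0022), and Tef, a relative of Dbp, 88.5, 135 and 134 CPM against 225, 183 and 206 CPM (log2 −0.78, SE 0.17, adjusted p = 0.013).

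Arntl and its partner were on the rising side. Arntl held 40.2, 33.7 and 29.6 CPM at 18 months, against 10.5, 20.5 and 9.53 CPM at 8 months, a rise of 1.35 (SE 0.29, adjusted p = 0.015), and the 2-month means were 4.65 and 3.09 CPM. Npas2, its partner, held 30.2, 21.9 and 22.1 CPM against 9.21, 13.1 and 9.75 CPM (log2 1.21, SE 0.26, adjusted p = 0.012). Neither gene's groups overlapped. Nfil3, a repressor of the genes that Dbp activates, held 10.4, 23.9 and 4.8 CPM against 2.49, 3.15 and 1.81 CPM (log2 2.39, SE 0.56, adjusted p = 0.025). Cry1, a late repressor, held 19, 18.9 and 11.5 CPM against 9.84, 8.33 and 8 CPM (log2 0.92, SE 0.23). Per2, an early repressor, held 76.9, 71.7 and 66.2 CPM against 43.6, 34.3 and 41 CPM (log2 0.85, SE 0.17, adjusted p = 0.0091), so it moved with Arntl and against Dbp and Nr1d1. Clock itself held 87.1, 89.8 and 94.6 CPM against 77.4, 83.8 and 72.2 CPM (log2 0.22, adjusted p = 0.32), and Per3 had a log2 difference of −0.77 that did not pass.

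Of these calls, Dbp, Nr1d1, Nr1d2 and Per2 held with any 1 library left out, at adjusted p of at most 0.0398. Arntl (up to 0.074), Npas2 (0.0672) and Tef (0.0719) were lost without 18-month replicate 1, 8-month replicate 1 or 8-month replicate 3. Cry1 (0.11) and Nfil3 (0.111) were called without 18-month replicate 3 and in none of the other 5 fits. The whole list gave 2 rises and 3 falls without 18-month replicate 1, 3 and 4 without replicate 2, 6 and 5 without replicate 3, and 1 and 3, 4 and 5, and 1 and 3 without 8-month replicates 1, 2 and 3. With the set difference taken out, Arntl (log2 1.93), Npas2 (1.29), Per2 (1.05), Cry1 (1.06), Dbp (−2.20), Nr1d1 (−1.27) and Tef (−0.99) were called in the same direction, and Nfil3 (log2 0.28, adjusted p = 0.84) and Nr1d2 (−0.39, adjusted p = 0.22) were not. The labels do not give the hour at which glands were taken, and a difference in hour between the groups cannot be told apart from age. The E-box CACGTG, which Arntl with Clock binds, lay in 5 of 16 clock promoters, those of Bhlhe41, Ciart, Cry1, Per1 and Tef, against 7.15% of all mouse promoters. It was in 2 of the 8 called genes with a promoter, Cry1, which rose, and Tef, which fell.

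**Figure D3:**
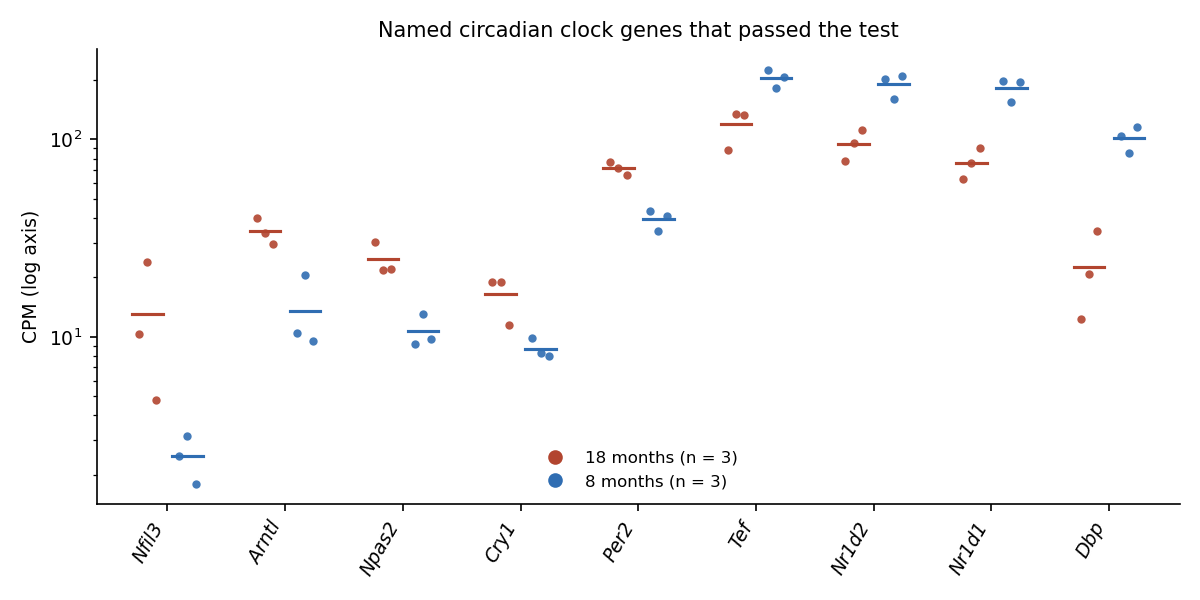
CPM per library on a log axis for the clock genes that passed the test and are named in the text; points are libraries, bars are means of 3. Nfil3, Arntl, Npas2, Cry1 and Per2 sit higher at 18 months on the left, and Tef, Nr1d2, Nr1d1 and Dbp sit lower on the right, with Dbp at 12.3 to 34.6 CPM against 85.6 to 115 CPM.

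Of 14 thyroid hormone synthesis genes tested, 1 rose and 2 fell, against 3.4% and 4.91% of all genes, 11 of the 14 log2 fold changes were negative, and the median was −0.24. Tg held 147324, 175215 and 237559 CPM at 18 months and 197479, 177309 and 214840 CPM at 8 months, with overlapping groups (log2 −0.07, SE 0.28, adjusted p = 0.90). Slc5a5, the iodide importer, held 224, 206 and 233 CPM against 398, 239 and 359 CPM (log2 −0.59, adjusted p = 0.54). Slc26a7, an anion transporter needed for iodide handling in the follicle, held 487, 438 and 733 CPM against 963, 803 and 1077 CPM and fell by 0.78 (SE 0.19, adjusted p = 0.024). The call was lost without 18-month replicate 1 or 2 or 8-month replicate 1 or 3 (highest adjusted p 0.1245). Nor was it called with the set difference taken out, at a log2 fold change of −0.03 (adjusted p = 0.95), and the 2-month means were 796 and 474 CPM in numbers 1 to 3 and 4 to 6. Duox2, which supplies the peroxide for iodination, held 78.7, 74.5 and 89 CPM against 59.7, 49 and 52.7 CPM (log2 0.58, SE 0.17, adjusted p = 0.046). That call was lost whichever of the 6 libraries was left out, with adjusted p up to 0.148. Gpx3, a secreted glutathione peroxidase thought to shield the follicle from that peroxide, held 156, 201 and 192 CPM against 331, 276 and 315 CPM (log2 −0.75, SE 0.14, adjusted p = 0.0061). It fell in every contrast and with any 1 library left out.

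Other thyroid lists are set beside the 3.4% of all genes that rose and the 4.91% that fell. Of the 5 transcription factors of the follicle, 11 genes of thyroglobulin uptake and breakdown and 11 C cell markers, 0 were called. With the set difference taken out, 1 uptake and breakdown gene rose and 2 fell, and 1 C cell marker fell. There 4 thyrotropin receptor and cAMP genes rose and 1 fell, and 2 follicle epithelium markers fell, against 11.6% and 12.6% of all genes. Among 13 genes of the thyrotropin receptor and cAMP path, Adcy6, an adenylyl cyclase, was the 1 that rose, at 217, 223 and 272 CPM against 158, 163 and 140 CPM (log2 0.63, SE 0.12, adjusted p = 0.0087). The call was missed only without 8-month replicate 3 (0.0603). Among 11 genes of hormone deiodination, transport and receptors, Dio1, the deiodinase that makes active hormone in the gland, held 362, 291 and 383 CPM against 604, 500 and 638 CPM (log2 −0.75, SE 0.19, adjusted p = 0.027), and Slc3a2, the shared chain of amino acid and hormone transporters, rose by 0.59 (adjusted p = 0.041). Both were lost without 18-month replicate 1 or 8-month replicates 1 or 3, Dio1 also without 18-month replicate 2 and Slc3a2 also without 18-month replicate 3, with adjusted p up to 0.17, and neither was called with the set difference taken out (0.14 and 0.86). Dio2, the deiodinase of cold-exposed brown fat among other tissues, held 3.89, 4.84 and 12 CPM against 17.8, 15.2 and 10.1 CPM and did not pass (log2 −1.06, adjusted p = 0.15). Of 11 follicle epithelium markers, Wfdc2, a secreted protease inhibitor, was the 1 called, lower by 0.59 (a log2 fold change of −0.59, adjusted p = 0.041). It was lost with any 1 library left out (up to 0.137) and with the length trend taken out (0.18).

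Several fat cell genes were lower at 18 months. Of 15 white fat markers, 6 fell and 0 rose, against 4.91% and 3.4% of all genes. In 14 the log2 fold change was negative, and the median was −0.93, against 0.01 over all genes. The mean level was 4.19, 5.18 and 5.24 in the 18-month libraries and 6.13, 6.28 and 6.10 in the 8-month ones. The 2-month libraries lay at 5.70, 6.05 and 5.32 (numbers 1 to 3) and 6.96, 6.80 and 6.87 (numbers 4 to 6). Pck1, which makes the glycerol backbone of stored fat, held 8.24, 14 and 22.1 CPM against 132, 229 and 155 CPM (log2 −3.54, SE 0.38, adjusted p = 0.00088). Adipoq, the hormone adiponectin, held 13.5, 29.6 and 23.5 CPM against 74.8, 93 and 93.2 CPM (log2 −1.97, SE 0.22, adjusted p = 0.00033). No 18-month library reached an 8-month one in either gene. Fabp4, the fatty acid carrier, held 86.9, 171 and 217 CPM against 550, 629 and 512 CPM (log2 −1.83, SE 0.27, adjusted p = 0.0021), and the lipase gene Pnpla2 fell by 0.93. Cidec, a lipid droplet gene that also fell, held 15.6, 28.2 and 22.5 CPM against 61.4, 74.2 and 65.3 CPM. Adrb3, the adrenergic receptor that starts fat breakdown, held 0.985, 2.6 and 5.02 CPM against 11.4, 14.9 and 10.2 CPM (log2 −2.09, adjusted p = 0.023). All but Adrb3 held with any 1 library left out. Adrb3 was lost without 18-month replicate 2 or any of the 8-month libraries (up to 0.0884).

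Of 12 brown fat markers, 2 fell, against 4.91% of all genes. Cidea, a lipid droplet protein of brown fat, held 3.53, 9.52 and 19.7 CPM against 78.2, 67 and 61.7 CPM (log2 −2.66, SE 0.48, adjusted p = 0.014), and was lost without 18-month replicate 2 or 8-month replicate 1 (up to 0.0615). Slc25a20, the carnitine carrier of mitochondria, fell by 0.70 (SE 0.12, adjusted p = 0.004) with any 1 library left out. Ucp1, the heat-producing uncoupler, held 5.76, 17.9 and 93.8 CPM against 178, 97.7 and 102 CPM and did not pass (log2 −1.69, SE 0.85, adjusted p = 0.26). Prkar2b, a regulatory subunit of protein kinase A abundant in fat, held 5.18, 13 and 21 CPM against 59, 72.8 and 58.6 CPM (log2 −2.28, adjusted p = 0.025), and was lost without 18-month replicate 2 or any of the 8-month libraries (up to 0.0874). All these calls held with the set difference taken out, where 12 of 15 white fat markers fell with a median of −2.32 and 12.6% of all genes fell, and with the length trend taken out, where 7 fell against 3.5% of all genes. The 18-month library lowest in fat genes, replicate 1, was the highest in ER chaperones.

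Transcripts of other organs were the largest falls. All 12 liver genes fell, and their summed level was at most 18.4 CPM in a library of 18 months, against at least 375.1 CPM in one of 8 months. Alb, serum albumin, had 1 count in the 3 libraries of 18 months together and 12906 in those of 8 months, a ratio of 8 over 18 months of 12746 with a 95% counting interval of 2287 to 503485. With 0 counts at 18 months against a floor of 3 counts over the 3 libraries, Serpina3k was at least 736-fold lower, the fibrinogen chains Fgb, Fga and Fgg at least 342-fold, 328-fold and 269-fold lower, and Fabp1 at least 179-fold lower. Of 8 kidney genes, the 6 of low level fell, and Kap, a kidney protein that responds to androgen, was at least 386-fold lower. Cdh16 and Lrp2, which the follicle also expresses, were not called, and with them the list summed to 665.5, 736.2 and 825.6 CPM at 18 months against 729.6, 732.6 and 805.7 CPM at 8 months. Miox was the 1 of the 6 still called lower with the set difference taken out, where Kap, at or near 0 in the 2-month libraries too, could not be estimated. Slc12a1 was called without 8-month replicate 2 but in none of the other 5 fits (up to 0.0879), and Umod was lost without 18-month replicate 1 or 8-month replicate 1 (up to 0.0718). Obp1a and Obp1b, odorant binding proteins of nasal glands, were at least 932-fold and 403-fold lower, and Mup4, a major urinary protein, at least 441-fold lower. The Mup and Obp1 genes have near-identical copies, so their reads are uncertain. Like Kap, the genes Mup4, Obp1a and Obp1b could not be estimated with the set difference taken out. BC051076 was at least 171-fold lower, but its call, like those of Mup4 and Obp1b, was lost without 8-month replicate 1 or any of the 18-month libraries (up to 0.198). Other falls were 3 of 9 heart markers, 2 of 8 cartilage markers, Dcpp1 of 3 salivary gland markers and Sftpc, a surfactant gene, of 8 lung markers. Over all genes 4.91% fell. Dcpp1 and Sftpc held with any 1 library left out. None of the heart calls (Myh6, Nppa and Mybpc3, up to 0.159) or cartilage calls (Col9a1 and Col11a1, up to 0.197) held in all 6 fits. All 5 were lost without 18-month replicate 2 or 8-month replicate 1, and none of them was called with the set difference taken out. Prol1, a salivary and tear gland gene, was too rarely present to be tested, and lay at 0.259, 1478 and 0 CPM at 18 months and at 0 CPM in all 3 libraries of 8 months, so 18-month replicate 2 stood apart. The 2-month means of Alb were 0.476 and 4.75 CPM (numbers 1 to 3 and 4 to 6), so among wild-type males Alb lay mostly in the 8-month libraries. The 12 liver genes together were less confined to them. Their summed level was 57.5, 63.1 and 56.4 CPM in the 2-month males numbered 1 to 3. In those numbered 4 to 6 it was 347, 281 and 194 CPM. Counting intervals and floors cover counting error only, and the source of these transcripts was not tested.

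**Figure D4:**
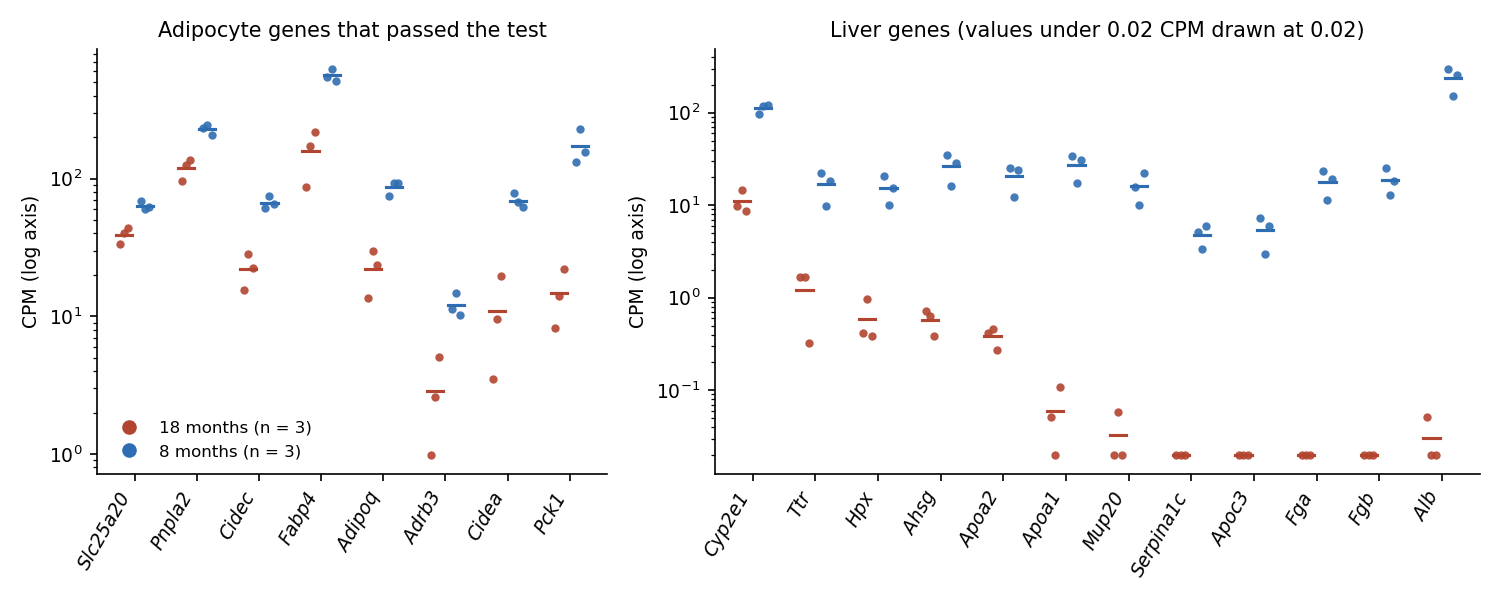
CPM per library on a log axis for the called fat cell genes (left) and for the 12 liver genes (right, with values under 0.02 CPM drawn at 0.02); points are libraries, bars are means of 3. Every 18-month point lies below every 8-month point in both panels, with Pck1 at 8.24 to 22.1 CPM against 132 to 229 CPM.

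Several genes that handle peroxides and oxygen radicals were lower. Of 22 antioxidant enzymes and selenoproteins, 8 fell and 0 rose, against 4.91% and 3.4% of all genes, with a median of −0.38. Prdx1, a cytosolic peroxiredoxin, held 287, 261 and 291 CPM against 526, 475 and 558 CPM (log2 −0.89, SE 0.16, adjusted p = 0.0044). Gpx4, the selenoenzyme that reduces lipid peroxides, held 369, 311 and 361 CPM against 587, 572 and 583 CPM (log2 −0.74, SE 0.15, adjusted p = 0.008). The secreted dismutase Sod3 held 55.7, 66.1 and 76.6 CPM against 121, 116 and 124 CPM (log2 −0.86, SE 0.15, adjusted p = 0.0038). These 3 and Gpx3 fell in every contrast and with any 1 library left out, and their groups were well apart. Nqo1, a quinone reductase, fell by 1.13, Sod1, the cytosolic dismutase, by 0.76, Cat, catalase, by 0.56 and Prdx3, the mitochondrial peroxiredoxin, by 0.51. These were lost without 18-month replicate 1 or 2 or 8-month replicate 1 or 3 (up to 0.0603 for Nqo1, 0.0746 for Sod1, 0.16 for Cat and 0.122 for Prdx3). With the length trend taken out Sod1 (0.071), Cat (0.12) and Prdx3 (0.25) were not called, and 6 of the 22 were. Gpx1, the cytosolic glutathione peroxidase, had a log2 difference of −0.47 at an adjusted p of 0.051.

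In the direct contrast a few genes of energy production and translation were lower. Their lists are short in exon length, with medians of 2286 bases (nuclear respiratory chain), 784 bases (mitochondrial) and 2178 bases (ribosomal proteins) against 3688 bases over all genes. Of 20 nuclear genes of the respiratory chain, 5 fell, against 4.91% of all genes, and all 20 were negative, with a median of −0.48, or −0.29 and 3 called with the length trend taken out. Ndufa4 held 132, 153 and 140 CPM against 254, 230 and 248 CPM (log2 −0.78, SE 0.16, adjusted p = 0.0092), and Uqcrfs1, an iron-sulphur subunit, fell by 0.71. Both were lost without 8-month replicate 1 (0.0503 and 0.0531), and Uqcrfs1 with the length trend taken out (0.11). Of 20 cytosolic ribosomal protein genes, 3 fell and all 20 were negative, with a median of −0.39, or −0.25 with the trend taken out. Rps24 held 284, 275 and 266 CPM against 528, 583 and 501 CPM (log2 −0.97, SE 0.16, adjusted p = 0.0027), and Rpl7 fell by 0.74. Both held with any 1 library left out and with the trend taken out, and Rps4x (log2 −0.68) held in neither. No ribosomal protein gene was called in all 4 contrasts. Ribosomal protein genes have many processed copies, so their reads are uncertain. Of 13 mitochondrial genes, whose reads can fall on nuclear copies, 3 fell, and the list's median was −0.35, or −0.09 with the trend taken out. Mitochondrial transcripts took 2.57%, 3.78% and 2.74% of counts at 18 months and 4.08%, 3.37% and 3.56% at 8 months. More members fell with the set difference taken out, where 12.6% of all genes fell. There 17 nuclear respiratory chain genes fell (median −1.18), 18 ribosomal protein genes (−1.06) and 9 mitochondrial genes (−1.42). With the length trend taken out too the counts were 10, 10 and 3, against 6.54% of all genes, with medians of −0.76, −0.60 and −0.30.

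Immune genes moved in small numbers and at low levels. Of 12 T and NK cell markers tested 2 rose, against 3.4% of all genes, with a median of 1.78. The level of the whole list of 15 was 0.81, 1.64 and 0.93 at 18 months against 0.66, 0.42 and 0.69 at 8 months. Cd3e, a chain of the T cell receptor complex, held 1.5, 3.29 and 2.07 CPM against 0.452, 0.508 and 0.438 CPM (log2 2.27, SE 0.56, adjusted p = 0.025). Trbc2, a T cell receptor constant gene, held 1.24, 8.25 and 1.64 CPM against 0.678, 0.508 and 1.21 CPM, which leaves its groups close together (log2 2.21, adjusted p = 0.043). Both were lost without 18-month replicate 2 or any of the 8-month libraries (up to 0.104 and 0.34). Neither was called with the set difference taken out, and the list's median there was 0.56. Of 3 thymocyte markers tested 1 fell and 0 rose, against 4.91% and 3.4% of all genes. Of 11 B and plasma cell markers, Blk and Derl3 rose. Derl3, an ER protein of secretory cells, held 268, 234 and 117 CPM against 93.7, 78.4 and 74.6 CPM (log2 1.33, adjusted p = 0.036), and like the chaperones it was lowest in 18-month replicate 3. It was called without that replicate and in none of the other 5 fits (up to 0.136), and Blk was lost in all 6 (up to 0.163). Both calls were lost with the set difference taken out, where the list's median was −0.01. Of 15 macrophage markers 14 were positive and 2 rose, Cd163 (log2 1.31) and Fcgr3 (0.86). Of the 6 fits, Cd163 was called without 18-month replicate 1 alone (elsewhere up to 0.155) and Fcgr3 without 18-month replicate 3 alone (up to 0.152). Of 14 complement genes tested 1 rose, C5ar1, and 1 fell. C5ar1, the receptor of complement fragment C5a on myeloid cells, held 5.5, 5.77 and 3.17 CPM against 0.735, 0.762 and 1.75 CPM (log2 2.14, SE 0.40, adjusted p = 0.0061) and held in all 6 fits. Ccl2, the monocyte chemokine, held 3.47, 2.48 and 1.8 CPM against 0.396, 0.254 and 0.329 CPM (log2 2.97, SE 0.46, adjusted p = 0.0021) and also held in all 6. Ciita, the switch of MHC class II genes, was the 1 of 15 antigen presentation genes to rise (log2 0.99, adjusted p = 0.032), and was called without 18-month replicate 1 but in none of the other 5 fits (up to 0.129).

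Interferon response genes moved the other way. Of 22 genes, 4 fell and 0 rose, against 4.91% and 3.4% of all genes, with 17 negative and a median of −0.40. Ifit3, an antiviral RNA-binding protein, held 6.69, 4.21 and 13.9 CPM against 46.4, 21.9 and 28.6 CPM (log2 −1.96, SE 0.41, adjusted p = 0.021), with no overlap. Ifit1 held 3.16, 3.81 and 4.04 CPM against 15.8, 6.15 and 5.92 CPM (log2 −1.34), and its mean at 8 months rests mostly on replicate 1. Ifit2 fell by 1.01 and Ifi27l2a by 0.96. None of the 4 held in all 6 fits. Without 8-month replicate 1 or 18-month replicate 1 all 4 were lost, with adjusted p up to 0.0855 for Ifit3, 0.249 for Ifit1, 0.142 for Ifit2 and 0.0672 for Ifi27l2a. Ifit3 and Ifit2 were lost also without 8-month replicate 3, Ifi27l2a also without 8-month replicates 2 and 3, Ifit2 also without 18-month replicate 2, and Ifit1 also without 18-month replicates 2 and 3. With the length trend taken out Ifi27l2a (0.29) and Ifit1 (0.064) were not called. With the set difference taken out 8 members of the list fell and 1 rose, against 12.6% and 11.6% of all genes. Only 1 member fell in every contrast.

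Genes used as marks of senescence did not move as 1 list. Of 15, 4 rose and 0 fell, against 3.4% and 4.91% of all genes, and the median was −0.09. Cdkn1a, the p21 inhibitor of the cell cycle, held 109, 50.5 and 49.7 CPM against 31, 26.4 and 31.6 CPM (log2 1.23, SE 0.30, adjusted p = 0.034). It was lost without 18-month replicate 1 or any of the 8-month libraries (up to 0.11), and its log2 fold change was 0.22 (adjusted p = 0.75) with the set difference taken out. Lmnb1, a lamin that is commonly low in senescent cells, held 8.87, 9.75 and 9.66 CPM against 5.43, 4.93 and 5.64 CPM (log2 0.82, adjusted p = 0.02), so it rose, and was lost without 18-month replicate 2 or any of the 8-month libraries (up to 0.0822). Ccl2 and Ccl8 (log2 2.41) were the other rises, and Ccl8 was called without 18-month replicate 3 but in none of the other 5 fits (up to 0.131). Sesn2, a stress-induced p53 target, rose by 0.66 (adjusted p = 0.0085), missed only without 8-month replicate 3 (0.053), and was at −0.05 (adjusted p = 0.88) with the set difference taken out. Of 19 cell cycle genes 0 were called.

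In the matrix, vessels and metabolism, small numbers of genes changed. The share called was 9.09% in the matrix list, 7.14% in the endothelial list and 10% in the cholesterol and fatty acid synthesis list, against 8.31% of all genes. In the insulin-like growth factor list it was 21.4%. Of 22 collagen and matrix genes, Col4a1, a chain of basement membrane collagen, held 308, 294 and 322 CPM against 206, 195 and 200 CPM and rose by 0.62 (SE 0.14, adjusted p = 0.014), and Col15a1 rose by 0.66 (adjusted p = 0.042). Col4a1 was lost without 8-month replicate 1 or 3 (up to 0.0642), Col15a1 was called without 18-month replicate 1 but in none of the other 5 fits (up to 0.134), and neither passed with the set difference taken out (0.09 and 0.094). Of 14 endothelial markers, Emcn, a sialoprotein of capillaries and veins, fell by 0.67 (adjusted p = 0.045) and was lost without 18-month replicate 1 or 2 or 8-month replicate 1 or 3 (up to 0.182). Of 20 genes of cholesterol and fatty acid synthesis, 2 rose. Mvd, which makes isopentenyl units of sterols, held 38.9, 29.6 and 34.2 CPM against 18.4, 20.4 and 21 CPM (log2 0.78, SE 0.13, adjusted p = 0.0034) and held in every contrast and with any 1 library left out, while Srebf2, the transcription factor of sterol synthesis, rose by 0.60 and was lost without 18-month replicate 1 or 3 or 8-month replicate 1 or 3 (up to 0.107). Of 14 genes of the insulin-like growth factor axis, Igf1r, the receptor, Irs1, its adaptor, and Igfbp6, a binding protein, rose by 0.51, 1.37 and 0.78. Igf1r was called without 18-month replicate 2 but in none of the other 5 fits (up to 0.11). Irs1 was lost without 18-month replicate 2 or any of the 8-month libraries (up to 0.184), and Igfbp6 without 18-month replicate 2 or 8-month replicate 1 or 3 (up to 0.11). Igfbp6 was at −0.08 with the set difference taken out (adjusted p = 0.85). Foxn1, the transcription factor of thymic epithelium, rose by 1.20 (adjusted p = 0.025), and was called without 18-month replicate 2 but in none of the other 5 fits (up to 0.0962).

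Of the genes named by size of change alone, Foxf2 had the largest rise. Foxf2 (ENSMUSG00000038402, chromosome 13, 31625816 to 31631403, forward strand), a forkhead transcription factor of mesenchyme and pericytes, held 23.2, 10.3 and 18.9 CPM at 18 months, against 2.04, 1.07 and 2.57 CPM at 8 months. The groups were far apart, and the rise was 3.20 (SE 0.36, adjusted p = 0.0002), at most 0.00186 with any 1 library left out and 3.97 with the set difference taken out. The 2-month means were 2.87 and 1.69 CPM. Selp, the P-selectin of activated endothelium and platelets, held 11.9, 10.9 and 4.2 CPM against 1.81, 1.12 and 2.68 CPM (log2 2.27, adjusted p = 0.02). Csf2rb2, a cytokine receptor chain of myeloid cells with a near-identical neighbour, held 9.33, 9.4 and 6.5 CPM against 2.94, 2.13 and 2.68 CPM (log2 1.70, adjusted p = 0.0024), and the chemokine gene Ccl6 held 13.2, 32.6 and 9.61 CPM against 5.54, 4.57 and 5.86 CPM (log2 1.79, adjusted p = 0.016). The other large rises were Nexmif (2.22), Lancl3 (2.22), Pik3r5 (1.91), Shisal1 (1.88), Chd5, a chromatin remodeller (1.82), Ston2 (1.71) and Avil, an actin-severing protein (1.71). Selp was lost without 18-month replicates 1 or 2 or 8-month replicates 1 or 2 (up to 0.0897), Ccl6 without any of the 8-month libraries (0.069), Lancl3 without any but 18-month replicate 3 (0.117), Ston2 without 18-month replicate 2 or any of the 8-month libraries (0.108) and Avil without 18-month replicate 2 or 8-month replicate 1 (0.067). With the set difference taken out Pik3r5 (0.073), Ccl6 (0.054) and Avil (0.55) were not called. With the length trend taken out too, Pik3r5 (0.15), Avil (0.48), Shisal1 (0.079), Chd5 (0.14) and Ston2 (0.056) were not called.

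Among genes of at least 20 CPM that held in the same direction after the set difference was taken out, 253 rises and 277 falls met the naming rule. Kif1a, a kinesin that carries dense-core vesicles, held 37.2, 29.8 and 22.9 CPM against 8.37, 9.9 and 12.7 CPM (log2 1.54, SE 0.20, adjusted p = 0.00055). Zkscan3, a zinc finger repressor of autophagy genes, held 194, 187 and 151 CPM against 70.5, 80.9 and 77.8 CPM (log2 1.21, SE 0.17, adjusted p = 0.00081), and Gse1 held 41.3, 40.1 and 49.1 CPM against 17.1, 22.3 and 15 CPM (log2 1.26). The naming rule admits no overlap between the groups, and the calls of these 3 genes held with any 1 library left out. With both the length trend and the set difference taken out, Kif1a was not called (log2 0.45, adjusted p = 0.31), while Zkscan3 and Gse1 were. Utp14b rose, at 27.9, 17.4 and 35.1 CPM against 11, 11.7 and 9.97 CPM. Eml6 rose by 1.26 and Dgkg, a diacylglycerol kinase, by 1.14. Utp14b was lost without 8-month replicate 1 or 3 (0.0694), Eml6 without 8-month replicate 1 (0.0603) and Dgkg without 18-month replicate 1 or any of the 8-month libraries (0.0935). On the falling side, Rasd1, a small G protein induced by glucocorticoids, held 4.87, 4.73 and 6.22 CPM against 15.5, 29 and 21.4 CPM (log2 −2.06, SE 0.26, adjusted p = 0.00045, at most 0.00414 with any 1 library left out). Gc, the vitamin D binding protein made by liver, held 0.726, 0.346 and 0.273 CPM against 25.8, 12.6 and 23.6 CPM. Mup3 had 2 counts at 18 months and 1268 at 8 months, a ratio of 8 over 18 months of 626 (95% counting interval 173 to 5176). Obp2a had 3 counts against 1178, a ratio of 388 (132 to 1883).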

How the data were processed

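The authors' deposited files hold raw counts per gene of read pairs, made with featureCounts 1.6.0 over exons of the Ensembl 88 annotation of GRCm38 without a strand setting, on alignment files whose names point to STAR, per the file headers. GRCm39, HISAT2 2.0.4, StringTie 1.3.4d and cutadapt 1.9 appear instead, with edgeR and DESeq2, in the submitters' processing notes, and the headers were followed. Poly(A) libraries were made with dUTP strand marking, per the labels' protocols, so overlapping and antisense genes share reads here.

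The 12 wild-type male libraries (18 months, 8 months and the 2 sets of 2 months, 3 each) were fitted together in R 4.3.3 with edgeR 4.0.16: TMM scaling, genes kept by filterByExpr (minimum count 10), a robust quasi-likelihood fit and its two-sided F test, and Benjamini-Hochberg adjustment over all 17373 genes at 0.05. The prior count was 0.125, the biological coefficient of variation 0.26 and the residual degrees of freedom 8. SE is the log2 fold change divided by the square root of F. Every counted feature has a gene identifier, and the 310 of 50686 with no symbol took up to 0.0939% of the counts in a library. No 2 libraries held identical values. The length trend is a loess (span 0.5) per library on log2 exonic length over genes above 5 CPM, used as offsets. Alternatives were DESeq2 1.42.0, its size factors, no filter, other sets of libraries in the fit, a block for the title number, genes left out, the length trend and each library left out. The code was tested on simulated data.

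Genes named are the 12 largest rises and falls among calls of at least 5 CPM without overlap, the same of at least 20 CPM that also held with the set difference taken out, and members of the gene lists. A list is described by counts and its median, without a set test. The members and lists were chosen with earlier results of these data known. A few members that were not called are given with their values, chosen after these were seen. A few genes of the lists and of the naming rule are not reported here.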

Additional observations from a re-analysis of the deposited data

How the results depend on the processing

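The direct contrast gave 1443 calls. Other settings gave 2193 with DESeq2 (1056 higher, 48.2% against 40.9%), 4215 with the 2-month difference of the library sets taken out, 2532 with that and the length trend taken out (55.1% higher), 218 without the muscle-richest library of each group (30.3% higher), and 80 each among the libraries with Pth under 1000 CPM (18.8% higher) and over it (10% higher), where 1 group has a lone library assumed to vary like the others. Leaving out 1 library gave 441 to 1337, with 28.1% higher without 8-month replicate 1 and 25.2% without replicate 3. The count stayed within 1.5 times with DESeq2's size factors (1447), no filter on low counts (1655), the 6 libraries alone (1866), all 30 libraries (1193), Tg left out (1443), genes of other organs left out (1457) and the length trend taken out (1091). For the contrast less the set difference (4215 calls), leaving out 1 library gave 2856 to 4566 and taking out the length trend 2532. Between the 2-month sets (4631 calls) it gave 2779 to 4828. In the fit of the 6 libraries of 18 and 8 months alone, 21 direct calls among the named genes and list members were lost. Among them were Hspa1b (adjusted p = 0.089), Ifit3 (0.074), Cidea (0.068), Ccl6 (0.063), Nfil3 (0.059) and Prkar2b (0.054).

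The title numbers were tried as a replicate block, which gave 1185 calls, 927 of them shared. Same-numbered libraries correlated in their deviations at −0.48, 0.12 and 0.57 over 11634 genes, and 18-month replicate 1 correlated best with 8-month replicate 2 (0.45). Deviations from a group's own mean are tied to each other. These values therefore cannot show whether same-numbered samples were handled together.

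Directions turned for few genes. With the set difference taken out Sesn2 was at −0.0455, Igfbp6 at −0.0848 and Slc5a5 at 0.75, the last at 0.99 with the length trend taken out too. Tg ran from −0.2869 to 0.0709 over the fits that left out 1 library, above 0 without 18-month replicate 1 and 8-month replicate 3, and was at 0.20 among the libraries with Pth under 1000 CPM. The alternatives on length, muscle and Pth were chosen after seeing the data, and the causes were not tested. With 3 libraries a group, a call lost when 1 is left out also reflects the smaller fit.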
